A study of Homo sapiens with 18 samples.

Results

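Mitochondrial complex I was followed through the transcripts of its nuclear-encoded subunits, whose symbols begin with NDUFA, NDUFB, NDUFC, NDUFS or NDUFV or read NDUFAB1. Assembly factors were left out of the set. The probe annotation lists 38 such symbols, and 34 of them were measured as genes with a single symbol, of 18417 genes in all. NDUFC2 and NDUFS5 were not used because their probe sets carry several symbols, and the other 2 were not analysed here. The 34 comprise 6 core subunits, 9 accessory subunits of the matrix arm, 18 of the membrane arm, and NDUFAB1, which sits in both arms. None of the measured genes is one of the 7 subunits encoded by mitochondrial DNA.

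The data are 18 Affymetrix Gene arrays of NCI-H1299, a lung carcinoma line that makes no p53 of its own. Cells were transiently transfected with a plasmid that also encodes green fluorescent protein, fluorescent cells were sorted, and RNA was taken 40 hours after transfection. In the first set of 9 arrays the plasmid carried ΔNp53:WTp53, which pairs the N-terminally shortened isoform ΔNp53 with wild-type p53, or wild-type p53 alone (WTp53), or was the empty vector, each in experiments 0, 4 and 5. In the second set it carried a tethered WTp53 construct, WTp53, or was empty, again with 1 array per construct in each of 3 experiments, d, e and f, described as controls by the submitters. Each group had 3 arrays. The transfection field of the tethered arrays names ΔNp53:WTp53, against their title and description, so every statement on the tethered construct rests on those titles. All cells were transfected and sorted, a change in a bulk sample cannot tell fewer expressing cells from less RNA per cell, and the experiments in the second set are not stated to be independent transfections.

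Complex I is the entry point of the mitochondrial respiratory chain: it oxidises NADH, hands the electrons through a row of iron-sulfur clusters to ubiquinone, and pumps protons across the inner membrane. The core subunits carry the flavin and the clusters in the matrix arm and the proton channels in the membrane arm, and the accessory subunits surround and stabilise them. The subunits come from many separate nuclear genes and from mitochondrial DNA, so the complex can only be built when both are expressed.

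The arrays give log2 intensities after RMA, the authors' background correction, normalization and summary per probe set. A level can be compared between arrays of a set but not between genes or between sets, and differences below are log2 intensity differences, with the standard error of the limma fit of that set's 9 arrays. A gene is called changed where its limma p, adjusted over the 18417 genes by the Benjamini-Hochberg method, was under 0.05. As a check of the labels, the p53 targets CDKN1A, a cell cycle inhibitor, and MDM2, a ubiquitin ligase, were called higher than vector with every p53 construct. Their differences from vector were 3.69 ± 0.26 and 3.09 ± 0.11 with ΔNp53:WTp53 (limma adjusted p = 1.91e-05 and 6.39e-07). The array medians were 4.89 to 4.97 in the first set, whereas the second had 7.01 to 7.07. Among the 34 subunits the median SD over the 3 arrays of a group was 0.0808 with ΔNp53:WTp53, 0.0504 with WTp53 and 0.0687 with vector in the first set, and 0.0852 with tethered WTp53, 0.037 with WTp53 and 0.0674 with vector in the second.

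The promoters of 3 subunits are shown first, because these had the smallest p of the 34 in the comparisons of the first set: NDUFB3 with ΔNp53:WTp53 against vector, NDUFS1 with WTp53 against vector, and NDUFA2 with ΔNp53:WTp53 against WTp53. Each line holds the 250 bases before the transcription start, 5′ to 3′ on the gene's strand, from RefSeq on GRCh38.p14. They come from chr2:201071751-201072000 (plus strand), chr2:206159445-206159694 (minus strand, the more upstream of 2 listed starts) and chr5:140647631-140647880 (minus strand). Capitals mark a match to one of the motifs searched.
NDUFB3: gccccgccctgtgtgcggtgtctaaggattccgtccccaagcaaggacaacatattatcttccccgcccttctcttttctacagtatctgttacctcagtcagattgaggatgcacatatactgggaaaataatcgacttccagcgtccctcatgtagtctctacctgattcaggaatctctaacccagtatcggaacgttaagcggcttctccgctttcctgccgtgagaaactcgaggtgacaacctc
NDUFS1: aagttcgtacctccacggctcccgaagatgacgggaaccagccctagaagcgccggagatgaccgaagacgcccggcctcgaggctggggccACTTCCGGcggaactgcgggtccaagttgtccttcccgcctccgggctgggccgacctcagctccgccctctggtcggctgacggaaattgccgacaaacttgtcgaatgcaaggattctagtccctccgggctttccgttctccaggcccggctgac
NDUFA2: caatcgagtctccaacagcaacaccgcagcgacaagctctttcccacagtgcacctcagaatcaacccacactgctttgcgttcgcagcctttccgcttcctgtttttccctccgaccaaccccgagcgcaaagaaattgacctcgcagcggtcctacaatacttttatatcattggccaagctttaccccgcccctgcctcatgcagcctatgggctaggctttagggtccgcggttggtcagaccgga
The capitals in NDUFS1 read ACTTCCGG, the reverse strand of the ETS motif CCGGAAGT bound by GABP, a factor of nuclear genes for mitochondrial proteins. None of the motifs occurred in the letters printed for NDUFB3 and NDUFA2.

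Motifs were searched on both strands of windows of 250 bases before to 50 after the start, which RefSeq lists for 32 of the 34 subunits and for 14239 measured genes. The motif AAGATGGC of YY1, a zinc finger factor of many housekeeping genes, was in 7 of 32 subunit promoters (21.9%), against 4.86% of the measured genes and 2.89% of all 35116 windows. Those 7 were NDUFA3, NDUFA6, NDUFA7, NDUFA9, NDUFB8, NDUFS4 and NDUFS7. The ETS motif was in 2 (6.2%), NDUFA13 and NDUFS1, against 7.15% of the measured genes and 4.14% of windows. CAAGGTCA, the motif of the estrogen-related receptors, was in 1 (3.1%), NDUFA5, against 1.29% and 1.28%. For NRF1, a transcription factor of respiratory genes, the longer form of its palindromic motif, with 1 open base in the middle, was in 6 (18.8%), against 10.1% of the measured genes and 5.78% of windows: NDUFA3, NDUFA8, NDUFA9, NDUFA11, NDUFA12 and NDUFB4. A shorter form, GCGCATGC, was searched after the counts of the longer form had been seen. It was also in 6 (18.8%), against 4.87% and 3.05%, and only NDUFA8 and NDUFB4 held both forms. The share that the subunits are set against, and which subunits match, thus depended on the form of the NRF1 motif. These motifs do not overlap one another except for the forms of the NRF1 motif, which share their first letters. A match is a description of the letters only.

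With ΔNp53:WTp53 against empty vector, the comparison that asks how the paired construct changes expression, 9 of the 34 subunits fell and 2 rose. The background was 20.3% of all genes fallen and 15.7% risen, against 26.5% and 5.88% of the subunits. The median difference was −0.18, against 0.01 over all genes, and 26 of the 34 were below 0. The falls were in 2 of 6 core and 5 of 9 matrix arm subunits, and in 2 of 18 of the membrane arm, where both rises also lay. Of the 5 epithelial markers 1 rose, the keratin KRT8 (0.86 ± 0.20), with mean log2 levels over the 5 of 6.29 to 6.41 with ΔNp53:WTp53 and 6.0 to 6.32 with vector, and their part in the result was not tested. Single marker genes here and below were named after their values were seen.

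NDUFS1, the largest core subunit, which carries iron-sulfur clusters, read 9.32, 9.07 and 9.03 in the ΔNp53:WTp53 arrays of experiments 0, 4 and 5, against 9.67, 9.73 and 9.78 with vector. All 3 ΔNp53:WTp53 arrays were below all 3 vector arrays, a difference of −0.59 ± 0.10 (1.5-fold lower, limma adjusted p = 0.0016). NDUFB3, a small accessory subunit of the membrane arm, read 6.14, 5.87 and 6.09 with ΔNp53:WTp53 and 6.55, 6.64 and 6.70 with vector. It had the lowest adjusted p of the 34 here, with a difference of −0.60 ± 0.10 (1.51-fold lower, limma adjusted p = 0.0014). Among the matrix arm subunits NDUFA5 read 9.09, 8.71 and 9.04 with ΔNp53:WTp53, against 9.44, 9.57 and 9.61 with vector, and differed by −0.59 ± 0.11 (limma adjusted p = 0.00283). NDUFA9, which lies beside the ubiquinone site, read 9.49, 9.25 and 9.26 with ΔNp53:WTp53 and 9.86, 9.78 and 9.83 with vector, a difference of −0.49 ± 0.09 (limma adjusted p = 0.00174). NDUFA2, a subunit with a thioredoxin-like fold, read 7.37, 7.33 and 7.12 with ΔNp53:WTp53 and 7.80, 7.73 and 7.70 with vector, a difference of −0.47 ± 0.09 (limma adjusted p = 0.00269). NDUFA6, which binds the acyl carrier protein NDUFAB1, read 8.77, 8.81 and 8.86 with ΔNp53:WTp53 and 9.16, 9.26 and 9.24 with vector, a difference of −0.41 ± 0.08 (limma adjusted p = 0.00224). For each of these 6 the 2 groups did not overlap.

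The 2 rises were in the far part of the membrane arm. NDUFB2 read 8.24, 8.66 and 8.65 with ΔNp53:WTp53 and 8.10, 7.97 and 7.97 with vector, a difference of 0.50 ± 0.12 (1.42-fold higher, limma adjusted p = 0.00734). NDUFB10 read 7.99, 8.25 and 8.24 with ΔNp53:WTp53 and 7.83, 7.80 and 7.66 with vector, a difference of 0.40 ± 0.10 (limma adjusted p = 0.00987). Both were higher in all 3 ΔNp53:WTp53 arrays. The remaining 3 falls, named after their values were seen, were NDUFV2 (−0.31 ± 0.08), which holds one of the first iron-sulfur clusters, NDUFA3 (−0.26 ± 0.07) and NDUFA7 (−0.23 ± 0.08). NDUFA7 was at the edge of the threshold (limma adjusted p = 0.0488) and lost the call without any 1 of 8 of the 9 arrays of the set, at 0.0595 to 0.178. All 3 ΔNp53:WTp53 arrays lay below all 3 vector arrays for 20 subunits and above them for 4, which is 58.8% and 11.8%, against 24.6% and 21.0% of all genes.

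**Figure D1:**
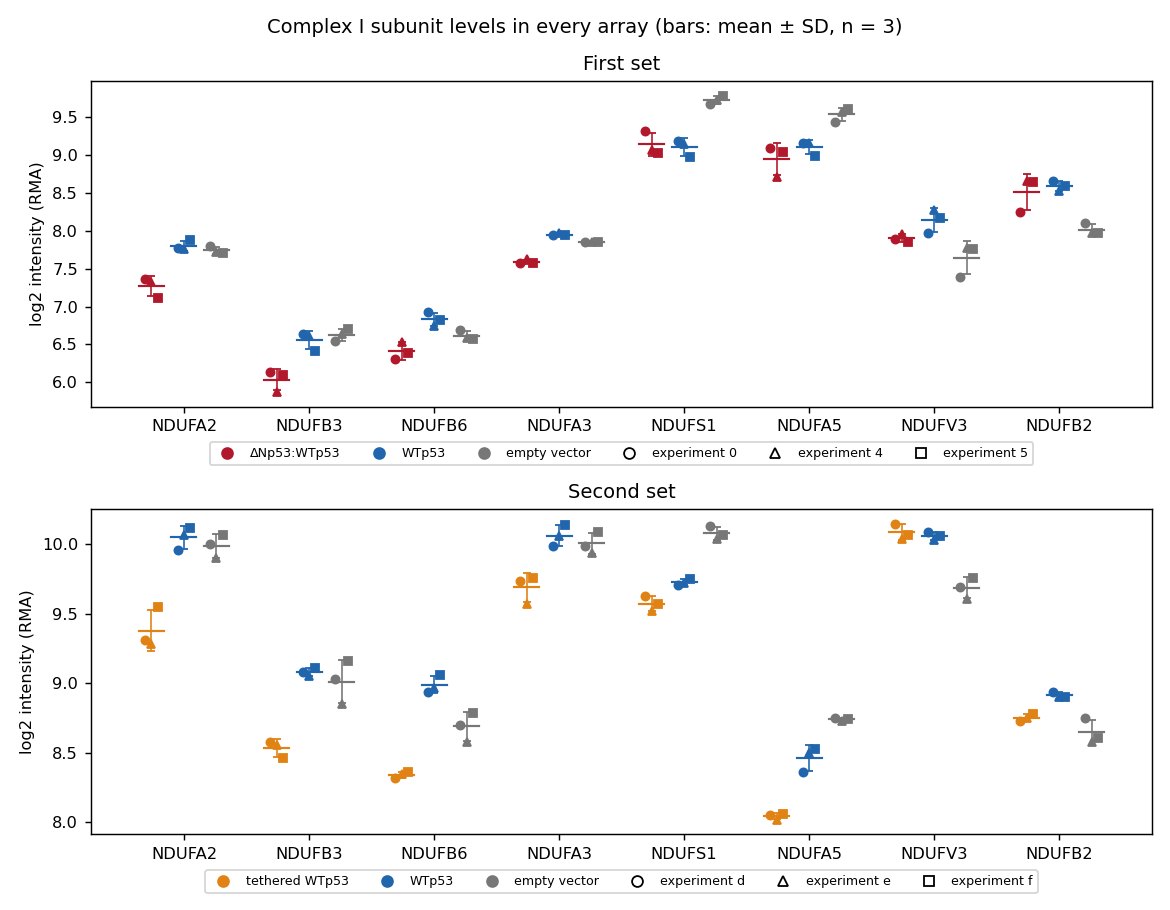
Log2 intensity (vertical axis) of 8 complex I subunits in every array, in the first set (top) and the second set (bottom). Points are arrays, with the marker showing the experiment, and bars are the mean ± SD of 3 arrays. Levels of different subunits or sets cannot be compared. NDUFA2, NDUFB3, NDUFB6 and NDUFA3 lie below WTp53 with ΔNp53:WTp53 and with tethered WTp53, and NDUFS1 lies below vector with all p53 constructs.

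With WTp53 against empty vector, 5 of the 34 subunits fell and 4 rose, against a background of 16.6% fallen and 15.2% risen (14.7% and 11.8% of the subunits). The median difference was −0.03, against 0.02 over all genes, and it was 0.02 when the arrays were quantile normalized again. The falls were 2 core and 3 matrix arm subunits. Of the rises, 3 were in the membrane arm and 1 in the matrix arm. Of the 5 measured leukocyte markers 2 also rose, CD79A (0.28 ± 0.07) and TYROBP (0.47 ± 0.10), with mean log2 levels of 4.53 to 4.54 with WTp53 and 4.24 to 4.38 with vector, and their part in the result was not tested.

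NDUFS1 read 9.19, 9.15 and 8.97 with WTp53, against 9.67, 9.73 and 9.78 with vector, a difference of −0.62 ± 0.10 (1.54-fold lower, limma adjusted p = 0.00121), the lowest adjusted p among the subunits. NDUFS3, a core subunit of the first assembly step, read 9.91, 9.84 and 9.80 with WTp53 and 10.20, 10.25 and 10.22 with vector, a difference of −0.37 ± 0.07 (limma adjusted p = 0.00375). NDUFA9 read 9.41, 9.41 and 9.37 with WTp53 and 9.86, 9.78 and 9.83 with vector, a difference of −0.43 ± 0.09 (limma adjusted p = 0.00422). These 3 were below vector in every WTp53 array. NDUFA5 (−0.43 ± 0.11, limma adjusted p = 0.0155) and NDUFA6 (−0.22 ± 0.08, limma adjusted p = 0.0481) also fell. NDUFA5 lost its call without the vector array of experiment 4 or 5 or the WTp53 array of experiment 5 (adjusted p 0.0539, 0.0615 and 0.0662). NDUFA6 lost it without any 1 of 7 arrays (0.0531 to 0.142) and with the experiment as a block (0.0722).

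NDUFA1, a membrane arm subunit encoded on the X chromosome, read 9.53, 9.52 and 9.51 with WTp53, against 9.13, 9.06 and 8.89 with vector, a rise of 0.49 ± 0.08 (1.41-fold, limma adjusted p = 0.00151). NDUFB2 read 8.66, 8.53 and 8.59 with WTp53 and 8.10, 7.97 and 7.97 with vector, a rise of 0.58 ± 0.12 (limma adjusted p = 0.00396). NDUFV3, an accessory subunit beside the flavin-binding subunits, read 7.97, 8.28 and 8.17 with WTp53 and 7.39, 7.78 and 7.76 with vector. Its difference was 0.50 ± 0.12 (limma adjusted p = 0.0111), and 0.0509 without the WTp53 array of experiment 4. NDUFA13, also described as a cell death regulator under the name GRIM-19, read 7.96, 8.01 and 7.99 with WTp53 and 7.76, 7.52 and 7.68 with vector. Its difference was 0.33 ± 0.08 (limma adjusted p = 0.0126), and 0.0567 without the vector array of experiment 4. None of the 4 overlapped between groups. Every WTp53 array lay below every vector array for 11 of the 34 subunits and above every vector array for 10. These are 32.4% and 29.4%, against 24.4% and 24.4% of all genes.

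ΔNp53:WTp53 against WTp53 compares the paired construct with full-length p53 alone. Which feature of the paired construct a difference comes from was not tested. Here 4 of the 34 subunits fell and 0 rose, against a background of 0.88% of genes fallen and 1.56% risen (11.8% and 0 of the subunits). At an unadjusted p under 0.05 were 13 of the 34 (38.2%), against 18% of all genes, and 2 of the 13 were higher with ΔNp53:WTp53: NDUFB10 (0.29 ± 0.10) and NDUFS3 (0.21 ± 0.07), named after their values were seen. The median difference was −0.14, against −0.01 over all genes, and 29 of 34 were below 0. It was −0.13, −0.17 and −0.10 within experiments 0, 4 and 5. The 4 were NDUFA2 of the matrix arm and NDUFB3, NDUFA3 and NDUFB6 of the membrane arm, and 0 of 6 core subunits were called.

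NDUFA2 read 7.37, 7.33 and 7.12 with ΔNp53:WTp53, against 7.77, 7.76 and 7.87 with WTp53, a difference of −0.53 ± 0.09 (1.44-fold lower, limma adjusted p = 0.019). NDUFB3 read 6.14, 5.87 and 6.09 with ΔNp53:WTp53 and 6.63, 6.61 and 6.42 with WTp53, a difference of −0.52 ± 0.10 (limma adjusted p = 0.0306). In both, every ΔNp53:WTp53 array was also below every vector array. NDUFA3, a short membrane arm subunit near the junction of the arms, read 7.58, 7.63 and 7.57 with ΔNp53:WTp53, 7.94, 7.97 and 7.95 with WTp53 and 7.85, 7.85 and 7.86 with vector. Its difference from WTp53 was −0.36 ± 0.07 (limma adjusted p = 0.0318). NDUFB6, a subunit of the far membrane arm, read 6.30, 6.53 and 6.39 with ΔNp53:WTp53 and 6.92, 6.75 and 6.83 with WTp53, a difference of −0.42 ± 0.09 (limma adjusted p = 0.0423). The other subunits among the 6 smallest p did not pass: NDUFA1 differed by −0.30 ± 0.08 (limma adjusted p = 0.0966) and NDUFB7 by −0.30 ± 0.10 (0.14).

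The count of 4 moved with the arrays used. It was 0 without the ΔNp53:WTp53 or the WTp53 array of experiment 4 or of experiment 5, 1 without the WTp53 array of experiment 0 or the vector array of experiment 4 or 5, and 6 without the ΔNp53:WTp53 array of experiment 0. It was 0 with the 6 arrays of the 2 groups alone and 12 in a fit over all 18 arrays. The count over all genes, 449 with all 9 arrays, moved as well: 54 to 158 where the subunit count was 0 with 1 array left out, 232 to 251 where it was 1, 2292 where it was 6, 96 with the 6 arrays and 2693 with the 18. The median difference stayed between −0.15 and −0.13 whichever array was left out, and all 3 ΔNp53:WTp53 arrays lay below all 3 WTp53 arrays for 16 of 34 subunits (47.1%, against 10.8% of all genes). The 5 measured leukocyte markers were also lower: their mean log2 level was 4.21 to 4.36 with ΔNp53:WTp53, 4.53 to 4.54 with WTp53 and 4.24 to 4.38 with vector, 0 of 5 passed the test, and their part in the result was not tested.

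**Figure D2:**
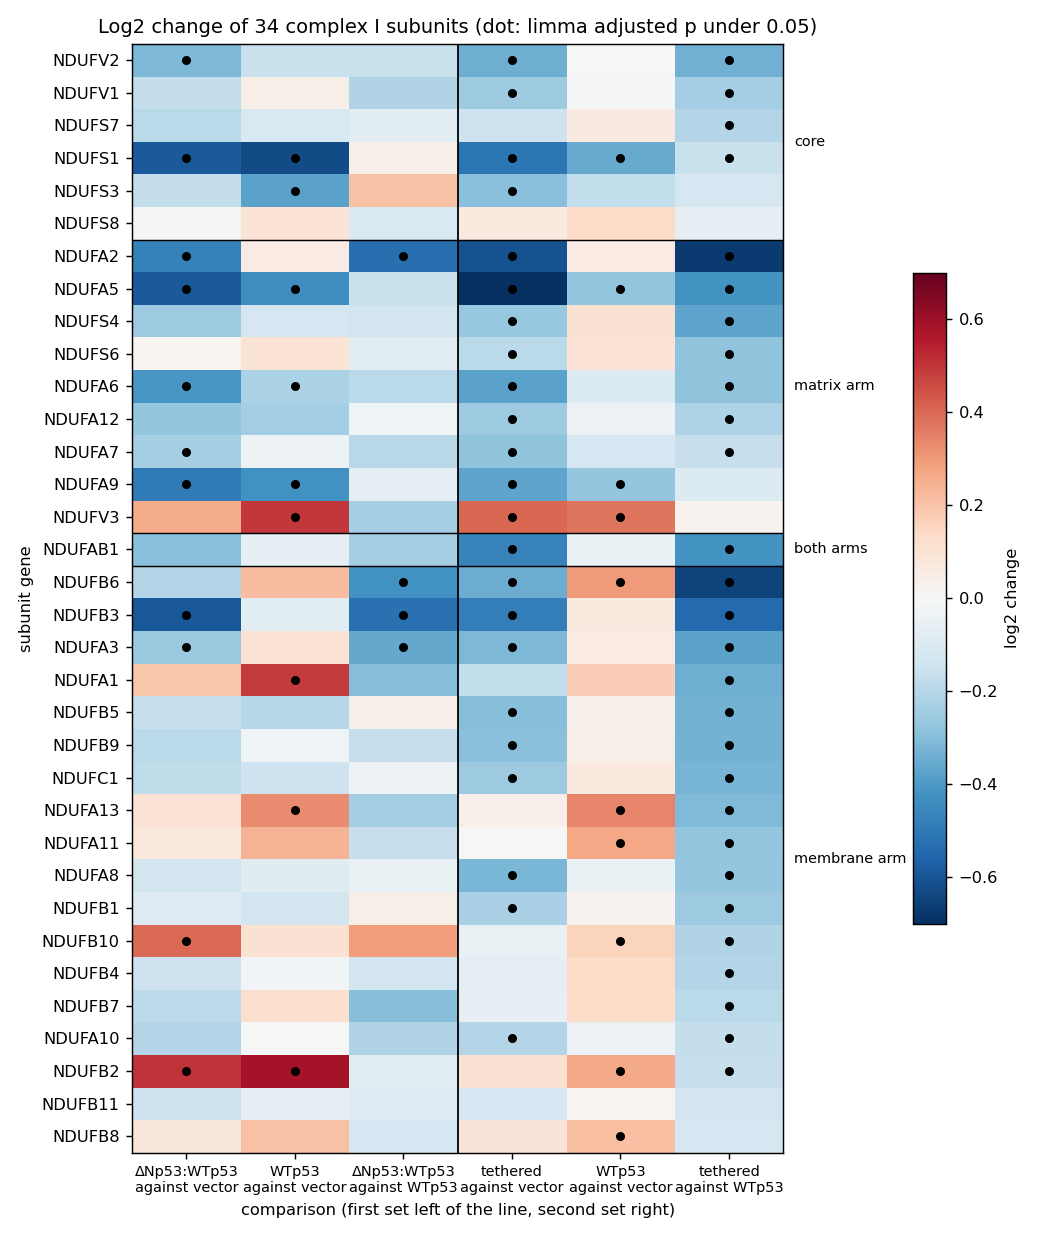
Log2 intensity difference (colour, blue lower and red higher in the group named first) of the 34 complex I subunits, in rows by structural group, in the 3 comparisons of the first set and, right of the line, the 3 of the second. A dot marks a limma adjusted p under 0.05. The column of tethered WTp53 against WTp53 has 28 dots and that of ΔNp53:WTp53 against WTp53 has 4.

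In the second set, 22 of the 34 subunits fell and 1 rose with tethered WTp53 against empty vector, against a background of 26.2% fallen and 21.6% risen (64.7% and 2.94% of the subunits). The median difference was −0.26, against 0 over all genes. The falls took in 4 of 6 core subunits, 8 of 9 of the matrix arm, NDUFAB1, and 9 of 18 of the membrane arm. All 3 tethered arrays lay below all 3 vector arrays for 22 subunits (64.7%, against 28.2% of all genes). Of the 5 epithelial markers 2 rose, among them KRT8 (0.60 ± 0.05), and 2 were below 0. Their mean log2 levels were 8.29 to 8.37 with tethered WTp53 and 8.14 to 8.18 with vector. Of 5 leukocyte markers 1 fell, CD14 (−0.50). The part of either list in the result was not tested.

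NDUFA5 read 8.05, 8.02 and 8.06 in the tethered WTp53 arrays of experiments d, e and f, 8.36, 8.50 and 8.53 with WTp53, and 8.75, 8.73 and 8.74 with vector. The groups did not overlap, and the difference of tethered WTp53 from vector was −0.70 ± 0.05 (1.62-fold lower, limma adjusted p = 5.37e-07). NDUFS1 read 9.63, 9.52 and 9.57 with tethered WTp53, 9.71, 9.72 and 9.75 with WTp53 and 10.13, 10.04 and 10.07 with vector, and differed by −0.51 ± 0.04 from vector (limma adjusted p = 2.94e-06). NDUFA6 read 10.86, 10.82 and 10.84 with tethered WTp53 and 11.21, 11.19 and 11.24 with vector, a difference of −0.37 ± 0.04 (limma adjusted p = 1.02e-05). NDUFA2 read 9.31, 9.28 and 9.55 with tethered WTp53 and 10.00, 9.90 and 10.07 with vector, a difference of −0.61 ± 0.08 (limma adjusted p = 4.74e-05). NDUFAB1, the mitochondrial acyl carrier protein, differed by −0.47 ± 0.07 and NDUFB3 by −0.48 ± 0.07 (limma adjusted p = 1.63e-04 and 1.63e-04). The single rise was NDUFV3, which read 10.15, 10.04 and 10.07 with tethered WTp53 and 9.69, 9.61 and 9.76 with vector, a difference of 0.40 ± 0.05 (limma adjusted p = 4.63e-05).

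WTp53 against vector in the second set gave 3 falls and 7 rises among the 34, against a background of 18.9% fallen and 17.9% risen (8.82% and 20.6% of the subunits), with a median difference of 0.06, against −0.02 over all genes. Of the 5 epithelial markers 2 rose, among them KRT8 (0.49 ± 0.05), and 2 were below 0. Their mean log2 levels were 8.2 to 8.29 with WTp53 and 8.14 to 8.18 with vector. Of 5 leukocyte markers 1 rose, CD79A (0.38 ± 0.05), and 1 fell, CD14 (−0.33). The means over these 5 were 6.64 to 6.72 with WTp53 and 6.63 to 6.69 with vector. The part of either list in the result was not tested. The falls were NDUFS1 (−0.35 ± 0.04, limma adjusted p = 8.74e-05), NDUFA5 (−0.28 ± 0.05, 9.39e-04) and NDUFA9 (−0.27 ± 0.08, 0.0165). NDUFA9 lost its call without the vector array of experiment d or the WTp53 array of experiment e (0.0716 and 0.0687). The largest rise was NDUFV3, at 10.09, 10.03 and 10.06 with WTp53 and 9.69, 9.61 and 9.76 with vector (0.37 ± 0.05, limma adjusted p = 1.40e-04). NDUFA13 read 9.07, 8.94 and 8.98 with WTp53 and 8.65, 8.63 and 8.69 with vector, a rise of 0.34 ± 0.05 (limma adjusted p = 1.96e-04). The membrane arm subunits NDUFB6, NDUFB2, NDUFA11 and NDUFB8 rose by 0.30 ± 0.06, 0.27 ± 0.05, 0.27 ± 0.06 and 0.21 ± 0.05 (limma adjusted p = 0.00154, 0.00135, 0.00241 and 0.006). NDUFB10, the last of the 7, had a limma adjusted p of 0.0345 and lost its call without the vector array of experiment e or the WTp53 array of experiment d or f (0.131, 0.0909 and 0.104). All 3 WTp53 arrays lay below all 3 vector arrays for 6 subunits and above them for 10. These are 17.6% and 29.4%, against 24.8% and 22.3% of all genes.

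With tethered WTp53 against WTp53, 28 of the 34 subunits fell and 0 rose, against a background of 17.5% of genes fallen and 14.9% risen (82.4% and 0 of the subunits). The median difference was −0.26, against 0.02 over all genes, and 33 of 34 were below 0. The falls were spread over the complex, with 4 of 6 core subunits, 7 of 9 of the matrix arm, NDUFAB1, and 16 of 18 of the membrane arm. The median was −0.24, −0.29 and −0.22 within experiments d, e and f.

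NDUFB6 read 8.32, 8.35 and 8.36 with tethered WTp53, 8.94, 8.97 and 9.06 with WTp53 and 8.70, 8.58 and 8.79 with vector. Its 3 tethered arrays were the lowest of the set, and the difference from WTp53 was −0.65 ± 0.06 (1.57-fold lower, limma adjusted p = 3.51e-05). NDUFA2 read 9.31, 9.28 and 9.55 with tethered WTp53 and 9.96, 10.07 and 10.12 with WTp53, a difference of −0.67 ± 0.08 (limma adjusted p = 1.42e-04). NDUFB3 read 8.58, 8.56 and 8.46 with tethered WTp53 and 9.08, 9.05 and 9.11 with WTp53, a difference of −0.55 ± 0.07 (limma adjusted p = 2.84e-04). Neither pair of groups overlapped. NDUFB5, of the far membrane arm, read 10.73, 10.73 and 10.69 with tethered WTp53 and 11.09, 11.02 and 11.04 with WTp53, a difference of −0.33 ± 0.05 (limma adjusted p = 4.52e-04). NDUFA5 (−0.42 ± 0.05), NDUFA6 (−0.28 ± 0.04), NDUFAB1 (−0.42 ± 0.07) and NDUFA3 (−0.37 ± 0.06) fell as well (limma adjusted p = 1.54e-04, 3.86e-04, 0.00105 and 0.0014). The 6 that were not called were NDUFS3, NDUFS8, NDUFV3, NDUFA9, NDUFB8 and NDUFB11, named after their values were seen, with differences of −0.14 to 0.03.

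All 3 tethered arrays lay below all 3 WTp53 arrays for 29 of 34 subunits (85.3%, against 22.2% of all genes). Leaving out 1 array gave 22 to 28 calls. A fit over all 18 arrays called 19 subunits and 1855 genes, where the fit of this set called 28 and 5970. Leaving out all arrays of experiment d, e or f, chosen after seeing the data, called 20 subunits each time (3236, 3708 and 4184 genes). For NDUFS4, whose knockout in mice is a model of Leigh syndrome, the probe set used fell by 0.37 (limma adjusted p = 0.00225 over the 19460 single-symbol probe sets), whereas its other probe set differed by −0.08 ± 0.07 (limma adjusted p = 0.368). The leukocyte markers averaged 6.50 to 6.64 with tethered WTp53, 6.64 to 6.72 with WTp53 and 6.63 to 6.69 with vector, 1 of the 5 fell, and their part in the result was not tested.

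Array by array, the median over the 34 subunits of the level minus the vector mean was −0.18, −0.18 and −0.19 with ΔNp53:WTp53 and −0.01, 0.01 and −0.04 with WTp53 in the first set. The same median was −0.23, −0.29 and −0.22 with tethered WTp53 and 0.07, 0.035 and 0.065 with WTp53 in the second. The arrays of either construct lay below all WTp53 and vector arrays of their set.

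**Figure D3:**
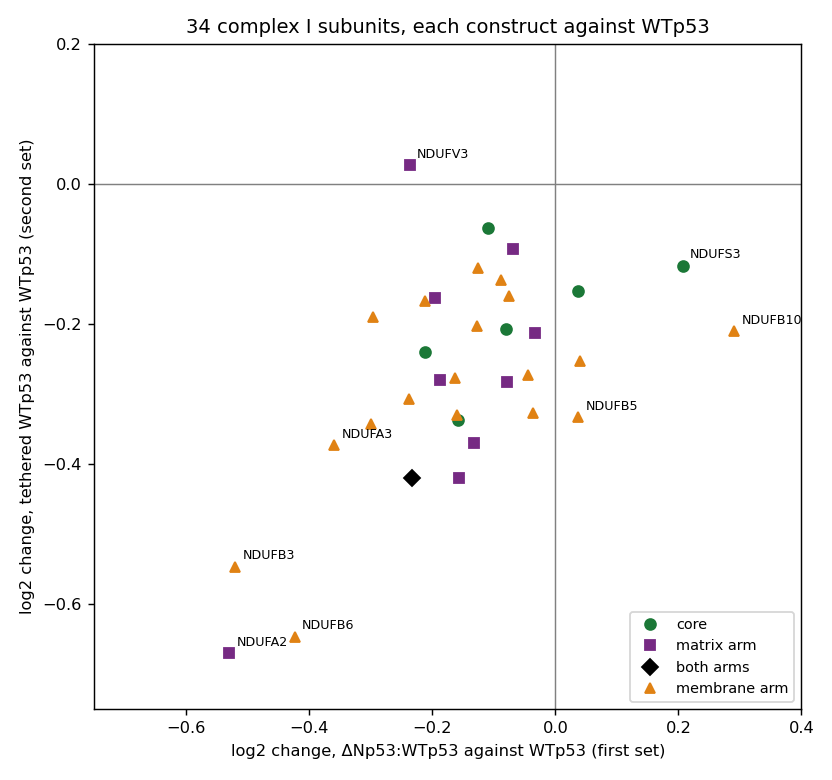
Each point is 1 of the 34 complex I subunits, with its log2 difference of ΔNp53:WTp53 from WTp53 in the first set on the horizontal axis and of tethered WTp53 from WTp53 in the second set on the vertical axis. The points lie mostly below 0 on both axes, for 28 of the 34 subunits.

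The sets share no arrays, so their comparisons can be laid side by side. Of the 34 subunits 28 were below 0 both with ΔNp53:WTp53 against WTp53 and with tethered WTp53 against WTp53. Singly, 29 and 33 of the 34 were below 0, so those counts alone set an overlap of this size. Across the 34 the differences correlated with Pearson r = 0.579 and Spearman rho = 0.451, points that share their arrays and are not independent. All 4 subunits that fell with ΔNp53:WTp53 against WTp53 were among the 28 that fell with tethered WTp53 against WTp53 (100% of the 4 and 14.3% of the 28). The 28 are 82.4% of the subunits, so this overlap too says little about agreement between the sets. WTp53 against vector correlated with r = 0.888 and rho = 0.829 between the sets, and the shared calls were falls of NDUFA5, NDUFA9 and NDUFS1 (60% of 5 and 100% of 3) and rises of NDUFA13, NDUFB2 and NDUFV3 (75% of 4 and 42.9% of 7). These figures cover the subunits only, and both sets used WTp53 in the same line. They do not show whether the agreement is particular to complex I.

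Differences between effects were tested over all 18 arrays with limma. This fit gives both sets 1 spread, although the median SD over all genes was 0.1509 with ΔNp53:WTp53 and 0.0693 with tethered WTp53. The WTp53 effect on the label-check genes was larger in the first set, by 1.49 ± 0.29 for CDKN1A and 1.30 ± 0.15 for MDM2 (limma adjusted p = 0.00476 and 3.61e-04). What part the separate normalization of the sets had in such differences was not tested. For the WTp53 effect in the first set minus that in the second, 0 of 34 subunits passed, against 6.55% of genes lower and 5.93% higher in the first set. At an unadjusted p under 0.05 were 5 of 34 (14.7%), against 28.3% of all genes. The 3 smallest p belonged to NDUFA1 (0.32 ± 0.11, limma adjusted p = 0.0734), NDUFS1 (−0.27 ± 0.11, 0.112) and NDUFB5 (−0.24 ± 0.10, 0.113). For ΔNp53:WTp53 minus WTp53, less tethered WTp53 minus WTp53, 2 passed on the higher side and 0 on the lower, against 1.54% and 1.42% of genes. The differences of ΔNp53:WTp53 and of tethered WTp53 from WTp53 were 0.29 and −0.21 for NDUFB10, which differ by 0.50 ± 0.11 (limma adjusted p = 0.0216). They were 0.04 and −0.33 for NDUFB5, which differ by 0.37 ± 0.10 (limma adjusted p = 0.0459). NDUFS3 came next (0.32 ± 0.09, limma adjusted p = 0.0712). NDUFB10 lost its call without 1 of 4 arrays: tethered e, WTp53 d, WTp53 f or WTp53 4 (0.0546, 0.0537, 0.0647 and 0.055). NDUFB5 lost it without any 1 of 15 of the 18 arrays, at 0.0555 to 0.111, and with the experiment as a block (0.0559), where NDUFB10 kept its call (0.0263). For the other 32 subunits a difference between the 2 constructs' effects did not pass, which does not show that they are equal.

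Assembly factors, the chaperones that put complex I together and are not part of it, were measured for 18 of 19 listed. With ΔNp53:WTp53 against vector 10 fell and 2 rose, with WTp53 against vector 9 fell and 0 rose, and with ΔNp53:WTp53 against WTp53 0 fell and 1 rose. In the second set 11 fell and 2 rose with tethered WTp53 against vector, 6 fell and 1 rose with WTp53 against vector, and 10 fell and 2 rose with tethered WTp53 against WTp53. The shares fallen were 55.6%, 50% and 0 in the first set, against 20.3%, 16.6% and 0.88% of all genes, and 61.1%, 33.3% and 55.6% in the second, against 26.2%, 18.9% and 17.5%. The shares risen were 11.1%, 0 and 5.56% in the first set, against 15.7%, 15.2% and 1.56% of all genes. In the second they were 11.1%, 5.56% and 11.1%, against 21.6%, 17.9% and 14.9%. NDUFAF1, an early assembly factor, differed by −0.76 ± 0.10 with ΔNp53:WTp53 and −0.68 ± 0.10 with WTp53 from vector (limma adjusted p = 2.77e-04 and 5.57e-04). NDUFAF4 differed by −0.90 ± 0.12 with ΔNp53:WTp53 from vector (limma adjusted p = 4.12e-04). NDUFAF7, a mitochondrial methyltransferase, was the rise with ΔNp53:WTp53 against WTp53, at 0.59 ± 0.10 (limma adjusted p = 0.0218), and lost the call without any 1 of 5 arrays (0.0564 to 0.104): ΔNp53:WTp53 4 and 5, and WTp53 0, 4 and 5. With tethered WTp53 against vector FOXRED1 differed by −0.66 ± 0.06 and TMEM70 by 0.45 ± 0.04 (limma adjusted p = 3.92e-06 and 3.02e-06).

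Among 12 transcriptional regulators of mitochondrial genes, 6 fell and 2 rose with ΔNp53:WTp53 against vector, 5 fell and 1 rose with WTp53 against vector in the first set, and 1 fell with ΔNp53:WTp53 against WTp53. The second set gave 8 falls and 2 rises with tethered WTp53 against vector, 4 and 1 with WTp53 against vector, and 6 and 1 with tethered WTp53 against WTp53. As shares, the falls were 50%, 41.7% and 8.33% in the first set, against 20.3%, 16.6% and 0.88% of all genes, and 66.7%, 33.3% and 50% in the second, against 26.2%, 18.9% and 17.5%. The rises were 16.7%, 8.33% and 0 in the first set, against 15.7%, 15.2% and 1.56% of all genes, and 16.7%, 8.33% and 8.33% in the second, against 21.6%, 17.9% and 14.9%. TFAM, which packages and transcribes mitochondrial DNA, differed by −0.53 ± 0.10 with ΔNp53:WTp53 against WTp53 (limma adjusted p = 0.0318) and by −0.53 ± 0.05 with tethered WTp53 against WTp53 (3.68e-05). The first of these lost its call without any 1 of 7 of the 9 arrays (0.0627 to 0.132), ΔNp53:WTp53 0 and vector 0 being the exceptions. GABPA, a subunit of GABP, differed by −0.62 ± 0.05 with tethered WTp53 from vector (limma adjusted p = 7.26e-07), and NRF1 by −0.55 ± 0.08 with ΔNp53:WTp53 from vector (5.45e-04). PPRC1, a coactivator, differed by −1.13 ± 0.14 with WTp53 from vector in the first set and −0.64 ± 0.04 in the second (limma adjusted p = 3.14e-04 and 6.73e-07). PPARGC1A, the coactivator PGC-1 alpha, rose by 1.08 ± 0.15 with ΔNp53:WTp53 against vector (limma adjusted p = 5.14e-04).

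Complexes II to V, the later steps of the chain and the ATP synthase, and the mitochondrial ribosomal proteins give a setting for complex I. With tethered WTp53 against WTp53, 27 of 44 genes of complexes II to V and 49 of 73 ribosomal proteins fell, with 2 and 1 risen and medians of −0.22 and −0.21, against 28 of 34 and −0.26 in complex I. The shares fallen were 61.4%, 67.1% and 82.4%, against 17.5% of all genes. With ΔNp53:WTp53 against WTp53, 2 of 44 and 0 of 73 fell, with medians of −0.14 and −0.12, against 4 of 34 and −0.14 in complex I. Here the shares were 4.55%, 0 and 11.8%, against 0.88% of all genes. With WTp53 against vector in the first set, 2 of 44 (4.55%) and 26 of 73 (35.6%) fell, against 16.6% of all genes. In the same comparison 7 of 44 (15.9%) and 7 of 73 (9.59%) rose, against 15.2%. With ΔNp53:WTp53 against vector, 5 of 44 (11.4%) and 43 of 73 (58.9%) fell, against 20.3% of all genes, with medians of −0.08 and −0.31. With tethered WTp53 against vector, 15 of 44 (34.1%) and 48 of 73 (65.8%) fell, against 26.2% of all genes. With WTp53 against vector in the second set, 0 of 44 and 21 of 73 (28.8%) fell, against 18.9% of all genes, and 18 of 44 (40.9%) and 9 of 73 (12.3%) rose, against 17.9%. No test set complex I against these lists.

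**Figure D4:**
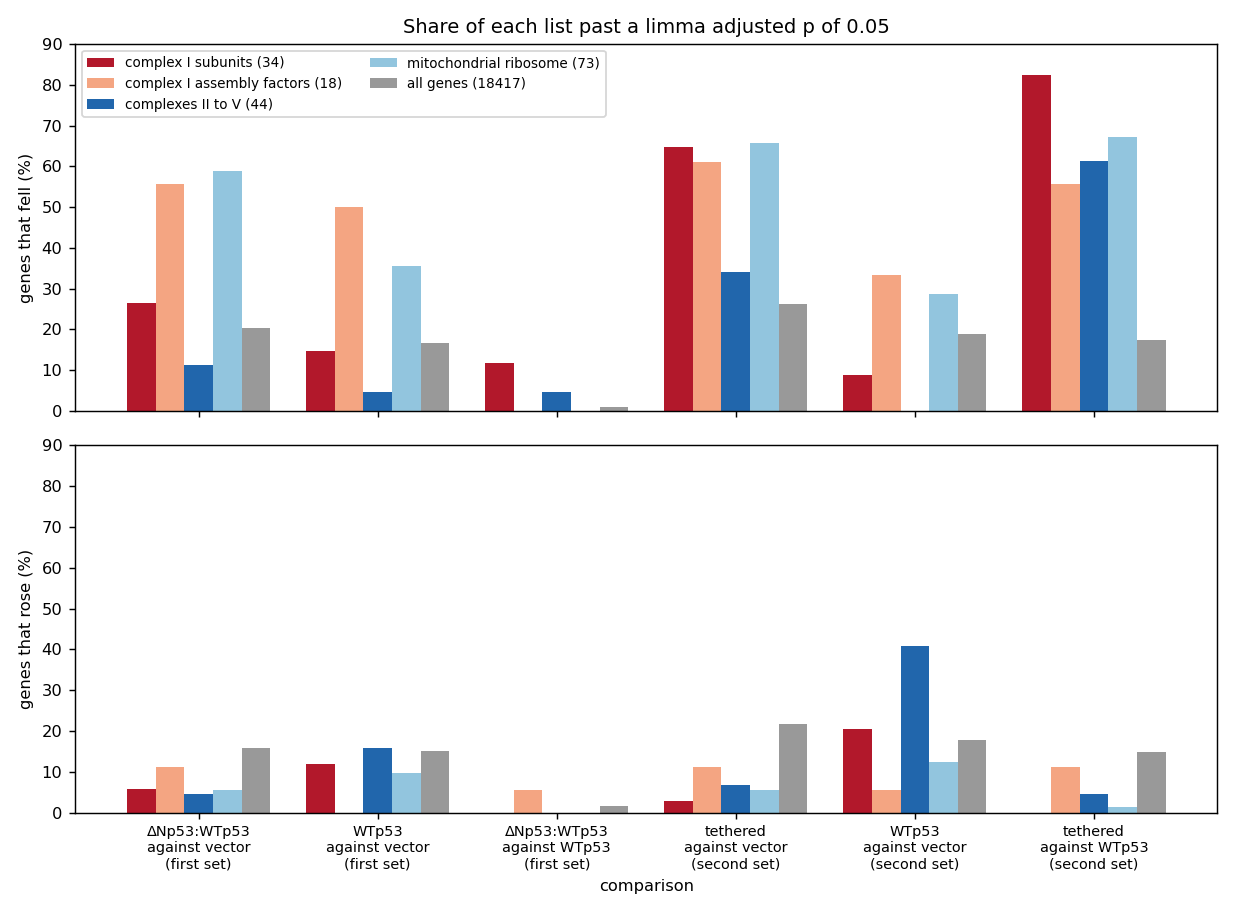
Percent of genes that fell (top) and rose (bottom) at a limma adjusted p under 0.05 in each of the 6 comparisons, for complex I subunits (34), assembly factors (18), complexes II to V (44), mitochondrial ribosomal proteins (73) and all genes (18417). With tethered WTp53 against WTp53, 82.4% of complex I subunits, 61.4% of complexes II to V, 67.1% of ribosomal proteins and 17.5% of all genes fell.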

How the data were processed

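RNA of sorted NCI-H1299 cells was measured on 18 arrays. The authors deposited log2 intensities, made with RMA in Affymetrix Expression Console per the submitters' processing notes, which name no versions. The 2 sets were normalized apart (6 and 2 decimals), so no level was compared between them.

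Of 33297 probe sets, 19460 have 1 gene symbol in the probe table, 1754 have several and 12083 have none there. For the 769 genes with several probe sets the one with the highest mean was used, which left 18417 genes. Dim genes were kept. The main test was limma 3.58.1 (R 4.3.3) on each set's 9 arrays, with group means as coefficients and 6 residual degrees of freedom, because the sets were normalized apart and differ in spread. Differences between effects used all 18 arrays. Tests were two-sided with Benjamini-Hochberg adjustment over all genes. The number of arrays limits the precision, and 3 arrays against 3 cannot fall below an exact permutation p of 0.1. In the second set nothing states separate cultures, so its p-values measure the spread between these samples, which may be technical. The fit was tested on simulated data.

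The members, lists, tests and settings were chosen with earlier results of these data known. Per comparison the subunits with the 6 smallest p were named, the up to 6 of each direction with the largest change among those called, 3 per difference of effects, and up to 4 assembly factors or regulators. Titles put the arrays in groups. In the first set all 9 correlations of residuals between arrays of the same experiment were above 0.1 (0.106 to 0.572). Between different experiments 6 of 18 were above 0.1 as well (−0.499 to 0.35), all of them between experiments 4 and 5. The series calls the first set's experiments independent transfections. In the second set 2 of 9 were above 0.1 (−0.039 to 0.132), against 1 of 18 between experiments (−0.214 to 0.163). Such values do not settle whether its letters pair the arrays. Alternatives were the experiment as a block, other normalization, filters, the mean of a gene's probe sets, other fits, and each array left out. The probe set of the transfected gene is not reported here.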

Additional observations from a re-analysis of the deposited data

Results flagged for a closer look

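The effect of the construct against WTp53 differed between the sets for 2 subunits by the test of that difference, which gives the separately normalized sets 1 spread. NDUFB10 differed by 0.50 ± 0.11 (0.29 for ΔNp53:WTp53 minus WTp53, −0.21 for tethered WTp53 minus WTp53, limma adjusted p = 0.0216). NDUFB5 differed by 0.37 ± 0.10 (0.04 and −0.33, limma adjusted p = 0.0459). With the experiment as a block NDUFB5 lost its call (limma adjusted p = 0.0559) and NDUFB10 kept it (0.0263).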

How the results depend on the processing

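No named subunit, assembly factor or regulator changed direction under the alternatives run. These took the mean of a gene's probe sets, not the other probe set alone. With tethered WTp53 against vector the other probe set of NDUFS4 differed by 0.03 ± 0.07 (limma adjusted p = 0.732), where the one used fell by 0.26. It also had the opposite sign in every comparison of the first set, such as 0.18 against −0.25 with ΔNp53:WTp53 against vector. The other probe sets of NDUFB4 and NDUFV2 kept the sign. In 1 fit over all 18 arrays the subunits called were 21 with ΔNp53:WTp53 against vector, 14 with WTp53 against vector and 12 with ΔNp53:WTp53 against WTp53 in the first set, where the fit of that set alone gave 11, 9 and 4. For the first 2 of these the 18-array fit called 8613 and 8052 of all genes, where the set's own fit called 6640 and 5862. For the matching comparisons of the second set it called 23, 9 and 19 subunits, where that set's own fit called 23, 10 and 28. With tethered WTp53 against vector the 18-array fit called 6215 of all genes and the set's own fit 8795. Over all genes the 18-array fit called 2693 with ΔNp53:WTp53 against WTp53, 3603 with WTp53 against vector in the second set and 1855 with tethered WTp53 against WTp53, where the fit of each set alone called 449, 6769 and 5970. With only the 6 arrays of the comparison, 0 subunits and 96 genes were called with ΔNp53:WTp53 against WTp53. With the replicate block, each difference between effects had 1 subunit called, where the fit without it had 0 for WTp53 and 2 for the constructs. Over all genes the block called 3169 for WTp53 and 747 for the constructs, where the fit without it called 2300 and 544. The block also ended the calls of NDUFA6 with WTp53 (0.0722) and NDUFA7 with ΔNp53:WTp53 (0.068) against vector (limma adjusted p), and moved no count of subunits within a set by over 1.5 times, whereas over all genes it called 806 with ΔNp53:WTp53 against WTp53.

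Leaving out 1 array gave 10 to 13 subunits called with ΔNp53:WTp53 against vector, 6 to 10 with WTp53 against vector and 0 to 6 with ΔNp53:WTp53 against WTp53. Over all genes the same fits called 5202 to 7763, 4346 to 6810 and 54 to 2292. The second set gave 22 to 25, 9 to 14 and 22 to 28 for the matching comparisons, with 8010 to 8661, 5822 to 6968 and 4467 to 5789 over all genes. The differences between effects gave 0 to 3 for WTp53 and 0 to 4 for the constructs, with 1272 to 3931 and 200 to 1318 over all genes. An alternative chosen after seeing the data left out a whole experiment. Without experiment 4 the first set's counts were 0, 1 and 0 (1871, 2111 and 1 over all genes), without experiment 5 they were 5, 2 and 0 (2599, 2517 and 0), and without experiment 0 they were 13, 10 and 6 (8101, 7029 and 2461). The second set's counts for the matching comparisons were 23, 8 and 20 without experiment d (7058, 5095 and 3236 over all genes). They were 20, 10 and 20 without experiment e (7740, 5143 and 3708) and 22, 7 and 20 without experiment f (7568, 5438 and 4184). The cause of these shifts was not tested. Signal over background was not derived, and 3 arrays a group limit the precision.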
